A study of Rattus norvegicus with 23 samples.

Results

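Complement genes were measured in total RNA of the accessory lung lobe of male F344 Fisher rats that were 19 months old when inhalation began. The members were 39 genes chosen by function, namely the components of the classical, lectin, alternative and terminal pathways, their receptors and their regulators, with C3 and Cfi as the leading markers. This choice was made with earlier results of these data known, so the shares of members past the thresholds are no independent test. All 39 genes were found on the array, and 38 of them were among the 23027 genes whose probes passed the filter on dim signals. Exposed rats had inhaled the TiO2 nano-aerosol by nose at 10 mg/m3 for 6 hours a day, 5 days a week over 4 weeks, while control rats had breathed filtered air in the same way. Rats were killed at the end of exposure (D0, 6 control and 5 exposed rats) or 28 days later (D28, 6 control and 6 exposed rats), with 1 rat per single-colour array. The labels name no transgene or deletion for any rat. The labels name each array a replicate rat of its group, and the p-values measure the spread between these rats. The source label of the exposed rats of D28 gives day 0, and their titles and descriptions, which give day 28, were followed.

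Complement is a cascade of plasma and tissue proteins that marks particles and microbes for uptake and can form a pore in a membrane. The classical pathway begins when C1q binds antibodies, damaged cells or pentraxins, and the lectin pathway begins when collectins and ficolins bind sugars. Both cleave C4 and C2, the alternative pathway adds factor B and factor D, and all of them meet at the cleavage of C3. The terminal components C5 to C9 follow, and factor I, C4b-binding protein, C1 inhibitor and membrane proteins hold the cascade in check. The liver makes most of the plasma pool, while in the lung the type II pneumocytes and the airway epithelium are known to make C3 and factor B, and macrophages make C1q.

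The probes that carried the results were 60 bases long, and a few are shown so that the measured stretch can be seen. The probe of C3 lies at chrUn:64513437-64513496 on the minus strand of rn4 (Un is sequence not placed on a chromosome), that of Cfb at chr20:4076976-4077119 on the plus strand, that of Mbl1 at chr16:17597083-17597142 on the plus strand, and 1 of the 2 probes of C9 at chr2:55784980-55789922 on the plus strand. The probes of Cfb and C9 map over a span longer than their own 60 bases. They are printed 5′ to 3′ and in lower case throughout, since no stretch of them was singled out.
C3 probe: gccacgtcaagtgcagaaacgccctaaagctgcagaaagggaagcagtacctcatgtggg
Cfb probe: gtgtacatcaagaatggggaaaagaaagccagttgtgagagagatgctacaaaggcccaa
Mbl1 probe: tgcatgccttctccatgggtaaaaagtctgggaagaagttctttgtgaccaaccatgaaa
C9 probe: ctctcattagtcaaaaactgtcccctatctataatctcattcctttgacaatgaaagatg

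Promoter windows of the members are shown for C3 and for the regulators Cfi, C4bpa and C4bpb, all over-expressed on D0. The windows are the 250 bases before the start of each gene in the RefSeq annotation of GRCr8, printed 5′ to 3′ on the strand of the gene, with matches to the motifs searched in capitals. They lie at chr9:2201340-2201589 (minus strand), chr2:221063066-221063315 (plus strand), chr13:44663472-44663721 (minus strand) and chr13:44683782-44684031 (minus strand), so that C4bpa and C4bpb are neighbours on chromosome 13.
C3: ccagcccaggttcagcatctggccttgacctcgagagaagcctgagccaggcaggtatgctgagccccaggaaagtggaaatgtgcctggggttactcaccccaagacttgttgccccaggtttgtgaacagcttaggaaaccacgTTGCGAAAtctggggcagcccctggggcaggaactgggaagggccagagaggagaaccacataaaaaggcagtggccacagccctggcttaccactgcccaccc
Cfi: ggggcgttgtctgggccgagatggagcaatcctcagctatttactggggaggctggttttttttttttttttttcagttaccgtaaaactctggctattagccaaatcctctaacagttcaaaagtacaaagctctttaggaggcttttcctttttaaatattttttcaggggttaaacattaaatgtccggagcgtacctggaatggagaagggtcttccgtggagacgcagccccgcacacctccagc
C4bpa: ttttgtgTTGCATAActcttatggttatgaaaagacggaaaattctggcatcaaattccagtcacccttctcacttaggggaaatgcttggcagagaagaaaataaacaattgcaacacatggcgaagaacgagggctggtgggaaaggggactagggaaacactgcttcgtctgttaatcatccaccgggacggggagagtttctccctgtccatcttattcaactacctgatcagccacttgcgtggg
C4bpb: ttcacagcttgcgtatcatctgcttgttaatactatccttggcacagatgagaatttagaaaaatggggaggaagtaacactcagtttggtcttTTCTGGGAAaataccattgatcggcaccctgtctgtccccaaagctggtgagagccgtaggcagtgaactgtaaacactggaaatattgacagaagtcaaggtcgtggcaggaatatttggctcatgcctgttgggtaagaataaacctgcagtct

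A RefSeq window was matched by symbol for 26 of the 39 members, and 4 motifs were searched on both strands of the windows, with no overlap between motifs in those printed. The C/EBP motif TTGCNNAA was found in the windows of 7 of these 26 members, C3 and C4bpa among them, and in 9.22% of all 33469 windows. The STAT motif TTCNNNGAA was found in 6 of the 26, C4bpb among them, and in 7.67% of all windows. The NF-kB consensus motif was found in 1 of the 26, C1qb, and in 6.33% of all windows, and the TATA box TATAAA in 0 of the 26 and in 12.9% of all windows. The window of Cfi held none of the 4. A match is a run of letters and was not tested as a site.

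On D0, 9 of the 38 members passed both thresholds, a Benjamini-Hochberg adjusted p below 0.05 over all genes and a fold change (FC) of at least 1.5, which is 23.7% of them against 1.79% of all genes tested. Of these, 8 were over-expressed (background 1.09%) and 1 was under-expressed (background 0.695%). They were Cfi, C4bpa, C9, Mbl1, C4bpb, C3, Cfb and C1qb, all higher in exposed rats, and Colec12, lower. On D28, 4 of the 38 members passed (10.5% against 0.756% of all genes), and all 4, Cfi, C4bpb, C3 and Cfb, were over-expressed (background 0.486%) and had passed on D0 too. The median log2 FC of the 38 members was 0.24 on D0, where that of all genes was -0.00066, and 0.24 on D28, where that of all genes was -0.0056. On D0 26 of the 38 members were above 0 (68.4%, against 49.9% of all genes) and on D28 29 were (76.3%, against 48.8%). At an unadjusted limma p below 0.05 there were 20 members on D0 (18 higher, 2 lower), against 11.9% of all genes, and 17 on D28 (15 higher, 2 lower), against 11% of all genes. On D0 the exposed rats lay above all controls for 7 members (1.94% of all genes) and below all controls for 1 (2.37% of all genes), and on D28 they lay above all controls for 4 (0.682% of all genes). In RNA of a whole lobe, more cells of a type and more RNA per cell cannot be told apart.

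**Figure D1:**
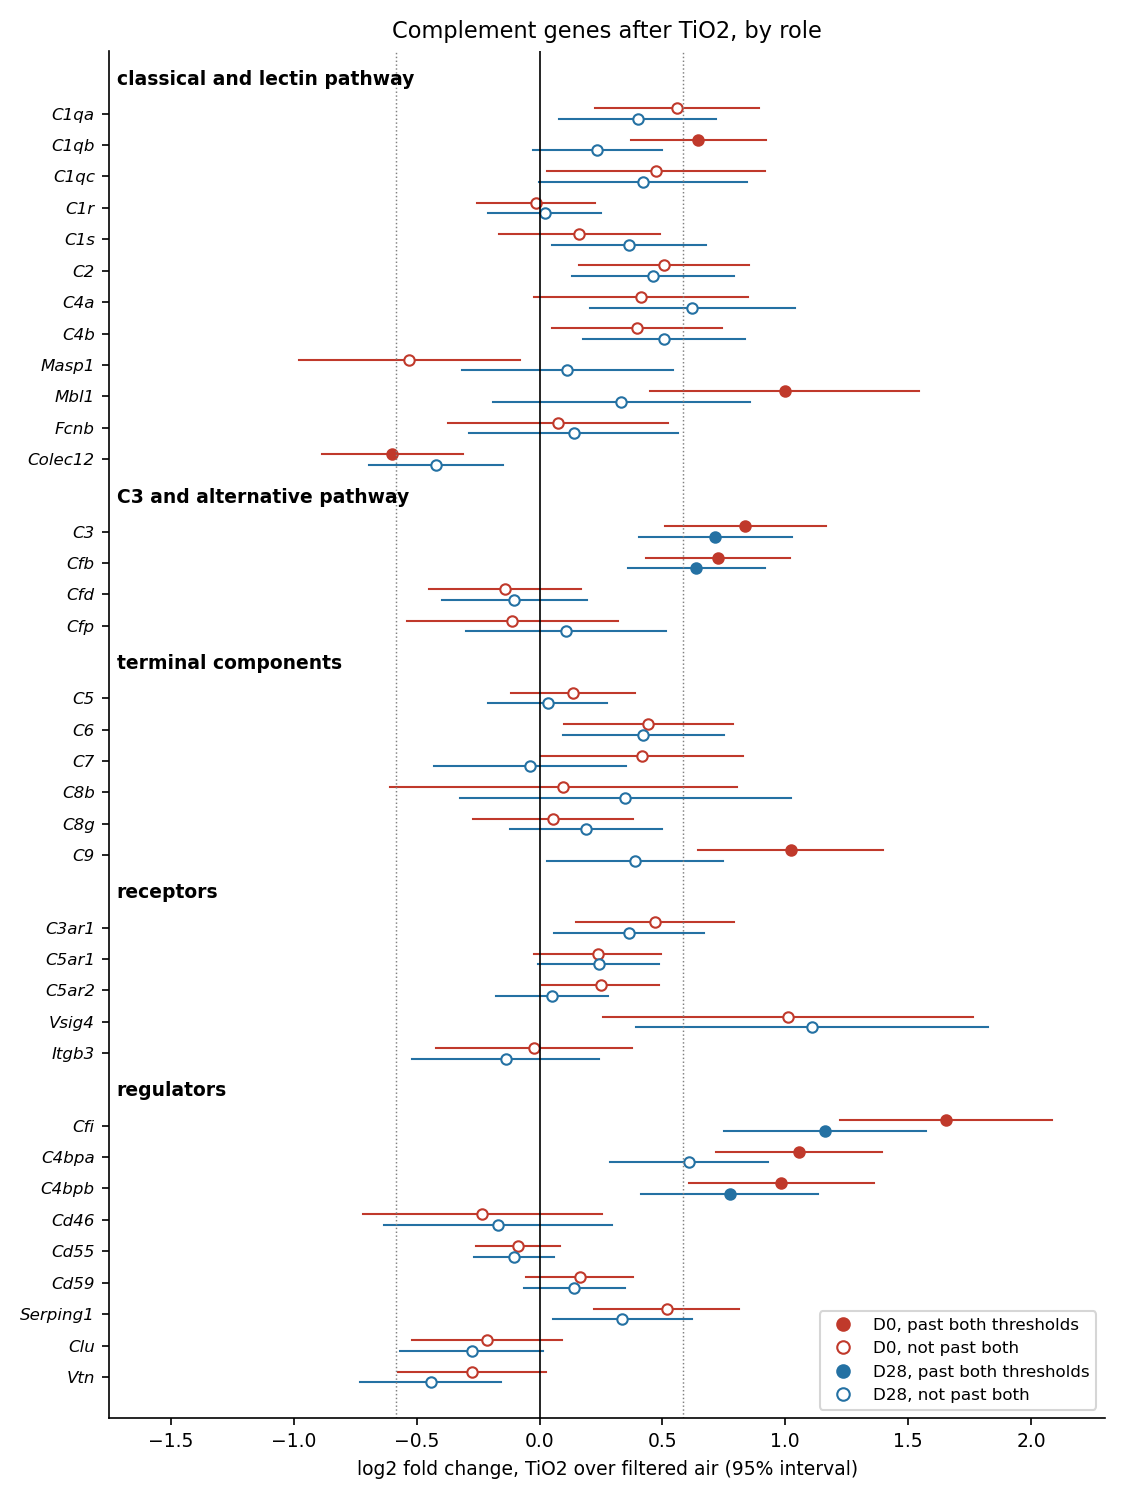
Log2 fold change of exposed over control rats (x axis) for 36 members, grouped by role, with 95% intervals of the fit, D0 in red and D28 in blue. C8a and Masp2, near background, are not drawn. Filled points passed both thresholds, dotted lines mark a FC of 1.5, and the farthest point to the right is Cfi at 1.65 on D0.

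Of the regulators Cfi, the serine protease factor I that cleaves C3b and C4b, had the largest log2 FC of the 38 members on D0. The log2 levels of Cfi, on the quantile-normalized scale used throughout, ran from 11.31 to 11.60 in the 6 control rats of D0, with a median of 11.39. In the 5 exposed rats of D0 they were 13.67, 13.47, 13.34, 12.25 and 12.72 for rats 1 to 5. The exposed rats lay above every control, and exposed rat 4 was the lowest of them. The log2 FC was 1.65 (SE 0.21, limma adjusted p = 0.000123), a FC of 3.15. On D28 the controls ran from 11.53 to 11.95 (median 11.81) and the exposed rats from 12.42 to 13.50 (median 12.92). The groups again did not overlap, with a log2 FC of 1.16 (SE 0.20, limma adjusted p = 0.00456), a FC of 2.24. That of Vsig4 on D28 was close to it at 1.11, and it was the larger of the 2 with the slide as a block (1.30 for Vsig4, 1.12 for Cfi).

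C4bpa and C4bpb, the chains of C4b-binding protein, a cofactor of factor I, were over-expressed on D0 as well. C4bpa ran from 11.31 to 11.76 (median 11.59) in the control rats of D0 and was 13.02, 12.67, 12.86, 12.11 and 12.44 in exposed rats 1 to 5. All 5 exposed rats were above the controls, and the log2 FC was 1.06 (SE 0.16, limma adjusted p = 0.000712). On D28 the controls of C4bpa ran from 11.73 to 12.13 (median 11.91) and the exposed rats from 12.18 to 13.14 (median 12.45). The groups did not overlap there either, but with a log2 FC of 0.61 (SE 0.15) the limma adjusted p was 0.0539, short of the threshold. It was past the threshold in 6 of 10 other settings, which the closing section gives.

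C4bpb ran from 6.83 to 7.30 (median 7.01) in the controls of D0 and was 8.34, 8.23, 8.29, 7.60 and 7.59 in exposed rats 1 to 5. The exposed rats were above all controls and fell into 3 high and 2 lower ones, with a log2 FC of 0.98 (SE 0.18, limma adjusted p = 0.00341). On D28 the controls of C4bpb ran from 6.53 to 7.47 (median 7.00) and the exposed rats from 7.40 to 8.24 (median 7.68). Here 1 exposed rat lay inside the controls, and the log2 FC was 0.77 (SE 0.17, limma adjusted p = 0.028). This call of D28 was lost in 6 of the 23 fits without 1 array, with adjusted p of up to 0.0675, and in 3 of 10 other settings. These were the normexp background correction (log2 FC 0.55, below the FC limit), the fit to only the arrays of D28 (adjusted p = 0.129) and the replicate number as a block (0.0619).

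The other 6 regulators did not pass both thresholds on either day. Serping1, the C1 inhibitor, ran from 13.67 to 13.99 in the controls of D0 and was 14.44, 14.50, 14.51, 14.38 and 13.87 in the exposed rats. Exposed rat 5 alone lay inside the controls, and the log2 FC was 0.52 (SE 0.14, limma adjusted p = 0.051). Without exposed rat 5 the log2 FC of Serping1 on D0 was 0.64 (limma adjusted p = 0.0135). On D28 its log2 FC was 0.34 (adjusted p = 0.309). Vtn, vitronectin, an inhibitor of the terminal complex, had a log2 FC of -0.27 on D0 and -0.44 on D28 (limma adjusted p = 0.139). Clusterin, Clu, another fluid-phase inhibitor of that complex, had -0.22 and -0.28. The membrane regulators Cd46, Cd55 and Cd59 had log2 FC from -0.23 to 0.16 on D0 and from -0.17 to 0.14 on D28, and none of them reached a limma adjusted p below 0.651 on either day.

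C3, the component on which all pathways meet, and Cfb, the protease of the alternative C3 convertase, were over-expressed on both days. C3 ran from 13.93 to 14.18 (median 14.04) in the control rats of D0. In exposed rats 1 to 5 it was 15.23, 15.11, 15.18, 14.09 and 14.81. Exposed rat 4 lay inside the controls and the other 4 lay above all of them, and the log2 FC was 0.84 (SE 0.16, limma adjusted p = 0.00396), a FC of 1.79. On D28 the controls ran from 13.81 to 14.13 (median 13.95) and the exposed rats from 14.39 to 15.01 (median 14.69). The groups did not overlap, with a log2 FC of 0.72 (SE 0.15, limma adjusted p = 0.0184), a FC of 1.64.

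Cfb ran from 13.86 to 14.19 (median 13.97) in the controls of D0 and was 14.88, 15.02, 14.99, 14.15 and 14.64 in exposed rats 1 to 5. As with C3, exposed rat 4 was inside the controls and the other 4 were above them, and the log2 FC was 0.73 (SE 0.14, limma adjusted p = 0.00512). On D28 Cfb ran from 13.64 to 14.21 (median 14.08) in control and from 14.44 to 14.86 (median 14.61) in exposed rats. There was no overlap, and the log2 FC was 0.64 (SE 0.13, limma adjusted p = 0.0187). The call of Cfb on D28 was lost without control rat 4 of D28 (log2 FC 0.57, below the FC limit), without exposed rat 6 of D28 (adjusted p = 0.0508), with the slide as a block (log2 FC 0.55, below the FC limit) and with only the arrays of D28 (adjusted p = 0.0652). The other members of this group did not pass on either day. Cfd, factor D, had a log2 FC of -0.14 on D0 and -0.10 on D28, and Cfp, properdin, had -0.11 and 0.11, with limma adjusted p of at least 0.886 for all of these values.

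**Figure D2:**
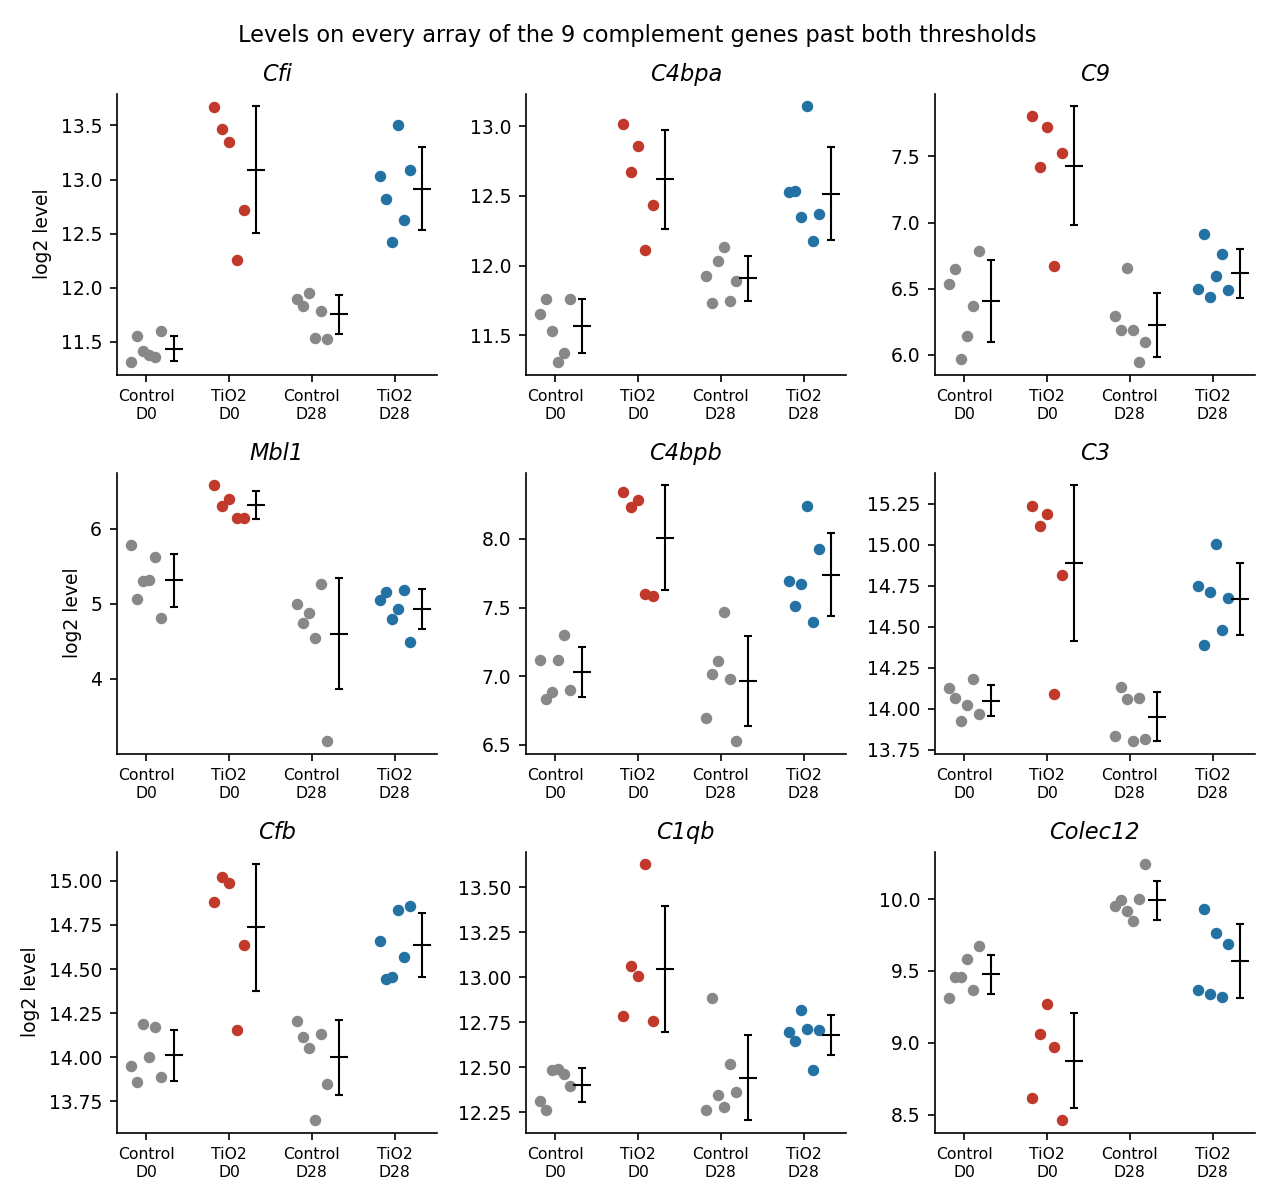
Log2 level on every array (points, y axis) of the 9 members past both thresholds on D0 or D28, in the 6 control and 5 exposed rats of D0 and the 6 control and 6 exposed rats of D28, with the mean and SD of each group beside the points. The y axes differ between genes and do not start at 0, and the groups of Cfi do not overlap on either day.

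Of the 7 terminal components, C9, the subunit that builds the ring of the pore, passed the thresholds on D0 alone. C9 ran from 5.97 to 6.78 (median 6.45) in the controls of D0 and was 7.81, 7.42, 7.72, 6.67 and 7.53 in exposed rats 1 to 5. Exposed rat 4 was again inside the controls, and the log2 FC was 1.02 (SE 0.18, limma adjusted p = 0.0024). With the normexp background correction the log2 FC was 0.67 and with the deposited table it was 0.79, both past the thresholds. The 2 probes of C9 gave 0.98 and 1.07. On D28 the controls ran from 5.95 to 6.66 (median 6.19) and the exposed rats from 6.44 to 6.91 (median 6.55). The groups overlapped, with a log2 FC of 0.39 (limma adjusted p = 0.39).

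The other terminal components did not pass on either day. C6 had a log2 FC of 0.44 on D0 and 0.42 on D28 (limma adjusted p = 0.207 and 0.256), with both of its probes above 0 on both days. C7 had 0.42 on D0 and -0.04 on D28, and C5 had 0.14 and 0.03. The 2 probes of C5 were of opposite sign. The brighter had 0.42 (SE 0.14) on D0 and 0.21 on D28, and the dimmer had -0.15 and -0.14. Of the chains of C8, C8b had 0.10 on D0 and 0.35 on D28, and C8g had 0.06 and 0.19. C8a was well above background on 0 of the 23 arrays and is given no FC.

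Of the 14 members of the classical and lectin pathways, 13 were tested. On D0 2 of the 13 were over-expressed, against 1.09% of all genes, and 1 was under-expressed, against 0.695%. On D28 0 of the 13 passed both thresholds, as did 0.756% of all genes. The 3 chains of C1q, the recognition part of C1, were all higher on average in exposed rats of D0. C1qb ran from 12.26 to 12.49 (median 12.43) in the controls of D0 and was 12.78, 13.06, 13.01, 13.63 and 12.76 in exposed rats 1 to 5. All 5 exposed rats were above the controls, and here exposed rat 4 was the highest, with a log2 FC of 0.65 (SE 0.13, limma adjusted p = 0.00781). Without exposed rat 4 the log2 FC of C1qb was 0.50 (adjusted p = 0.017), below the FC limit.

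C1qa ran from 10.95 to 11.34 in the controls of D0 and was 11.55, 11.60, 11.65, 12.56 and 11.38 in the exposed rats. The groups did not overlap, and with a log2 FC of 0.56 (SE 0.16) the limma adjusted p was 0.0668. With the slide as a block C1qa passed both thresholds on D0 (log2 FC 0.59, limma adjusted p = 0.033). C1qc had a log2 FC of 0.47 on D0 (limma adjusted p = 0.355), with 10.27 in exposed rat 4 and 9.35 to 9.55 in the other exposed rats. On D28 the log2 FC were 0.40 for C1qa, 0.24 for C1qb and 0.42 for C1qc, with limma adjusted p of 0.276, 0.533 and 0.458.

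The proteases and substrates downstream of C1q did not pass the thresholds on either day. C2 had a log2 FC of 0.50 on D0 and 0.46 on D28 (limma adjusted p = 0.128 and 0.199). C4a had 0.41 and 0.62 and C4b had 0.40 and 0.51, with adjusted p of 0.157 and 0.138 on D28. C4a and C4b are near-identical copies, and their probes may share transcripts. Without exposed rat 2 of D28, which was the lowest of its group for both, C4a (log2 FC 0.78, limma adjusted p = 0.0357) and C4b (0.62, adjusted p = 0.0404) passed both thresholds on D28. C1r and C1s, the proteases of C1, had -0.02 and 0.16 on D0, and 0.02 and 0.36 on D28.

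Of the lectin pathway, Mbl1, a mannose-binding lectin, was over-expressed on D0. It ran from 4.82 to 5.78 (median 5.31) in the controls of D0 and was 6.58, 6.31, 6.40, 6.14 and 6.14 in the exposed rats. The groups did not overlap, and the log2 FC was 1.00 (SE 0.26, limma adjusted p = 0.0429). This call was lost in 11 of the 23 fits without 1 array (adjusted p of up to 0.103) and with the normexp background correction, where the log2 FC was 0.43, and with the deposited table it was 0.60, past the thresholds. On D28 Mbl1 ran from 3.17 to 5.26 (median 4.82) in control and from 4.49 to 5.18 (median 4.99) in exposed rats, with a log2 FC of 0.33 (adjusted p = 0.71). The lowest value, that of control rat 6, was not well above background, and without this rat the log2 FC was 0.047 (adjusted p = 0.954). Mbl2, the other mannose-binding lectin, did not pass the filter and was well above background on 0 arrays.

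Colec12, a collectin of cell membranes that acts as a scavenger receptor, was the member that fell. It ran from 9.31 to 9.68 (median 9.46) in the controls of D0 and was 8.62, 9.06, 9.27, 8.97 and 8.46 in exposed rats 1 to 5. All exposed rats lay below the controls, and the log2 FC was -0.60 (SE 0.14, limma adjusted p = 0.018), close to the FC limit. The call was lost in 5 of 10 other settings and in 4 of the 23 fits without 1 array. On D28 the controls ran from 9.85 to 10.24 (median 9.97) and the exposed rats from 9.32 to 9.93 (median 9.53). There 5 of 6 exposed rats lay below the controls, with a log2 FC of -0.42 (adjusted p = 0.137).

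Masp1, a protease of the lectin pathway, had 4 probes, and only 2 of them were well above background on most arrays. Of these, the brightest (well above background on 23 arrays) had a log2 FC of -0.92 (SE 0.19) on D0 and the next (22 arrays) had -0.20 (SE 0.26). The other two were well above background on 10 and on 0 of the 23 arrays and are given no FC. The mean over all 4 probes, which includes them, had a log2 FC of -0.53 on D0 (limma adjusted p = 0.273) and 0.11 on D28. With the brightest probe in place of the mean, Masp1 was under-expressed on D0 (log2 FC -0.92, limma adjusted p = 0.00662). Fcnb, a ficolin, had 0.08 on D0 and 0.14 on D28. Masp2 was well above background on 1 array and is given no FC.

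None of the 5 receptors passed both thresholds on either day. Vsig4, a receptor of tissue macrophages for C3b, had the largest log2 FC of the 5. Its log2 levels were 7.98, 7.77, 7.64, 6.89, 7.32 and 7.13 in the control rats of D0 and 8.68, 8.45, 7.82, 8.94 and 8.44 in the exposed ones. On D0 4 of the 5 exposed rats lay above all controls, and the log2 FC was 1.01 (SE 0.36, limma adjusted p = 0.178). With only the arrays of D0 in the fit it passed both thresholds (adjusted p = 0.0473). On D28 Vsig4 ran from 5.35 to 7.42 in control and from 6.95 to 8.94 in exposed rats, with a log2 FC of 1.11 (SE 0.34, adjusted p = 0.137). Its spread between control rats was wide, with an SD of 0.80 on D28. With the slide as a block Vsig4 passed both thresholds on D0 (log2 FC 1.11, limma adjusted p = 0.0335) and on D28 (1.30, adjusted p = 0.0248). Of the 10 other settings it passed in only 2 on D0 and 1 on D28, with log2 FC down to 0.82 and 0.74. It passed in 0 of the 23 fits without 1 array on either day.

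The other receptors had smaller differences. C3ar1 had a log2 FC of 0.47 on D0 and 0.36 on D28 (limma adjusted p = 0.128 and 0.317), with its 3 probes above 0 on both days. C5ar1 had 0.24 on both days, and C5ar2 had 0.25 on D0, where the groups did not overlap (limma adjusted p = 0.378), and 0.05 on D28. Itgb3, an integrin chain that pairs in the vitronectin receptor, had -0.02 on D0 and -0.14 on D28, with 2 probes of opposite sign.

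Exposed rat 4 of D0 stood at opposite ends of its group for different members. Among the 5 exposed rats it was the lowest for Cfi, C4bpa, C9, C3 and Cfb, and the highest for C1qa, C1qb, C1qc and Vsig4. The difference between this rat and the mean of the controls was 0.04 for C3 and 0.82 for Cfi, whereas those of the other exposed rats ran from 0.76 to 1.18 for C3 and from 1.29 to 2.23 for Cfi. For C1qb the difference was 1.23 in this rat and ran from 0.36 to 0.66 in the others. Over the 38 members it was the lowest of the 5 exposed rats for 10 (26.3%), near the share of all genes (25.4%). It was the highest for 14 (36.8%), against 22.3% of all genes. Its array had the smallest share of spots well above background of all 23 arrays, 69.5%, and a 75th percentile of the processed signal of 1445, where the other exposed arrays of D0 had from 1932 to 2763, and the part of this in its levels was not tested. Exposed rat 5 was the lowest for 20 of the 38 members, against 23.8% of all genes. Without exposed rat 4, 7 of the 9 members passed both thresholds on D0, with log2 FC of 1.86 for Cfi and 1.04 for C3, and C1qb and Mbl1 did not.

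Control rat 4 of D28 stood apart as well. Its array was alone on its slide, had the highest 75th percentile of the processed signal of the 23 arrays (3470, where the others had from 1383 to 2835) and was the one read with the later software version. It was the lowest of the 6 controls of D28 for 17 of the 38 members (44.7%), against 25.5% of all genes, and its part in the differences of D28 was not tested beyond leaving it out. Without it Cfi (log2 FC 1.12, limma adjusted p = 0.0116), C3 (0.69, adjusted p = 0.041) and C4bpb (0.87, adjusted p = 0.014) passed both thresholds on D28, and Cfb did not.

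**Figure D3:**
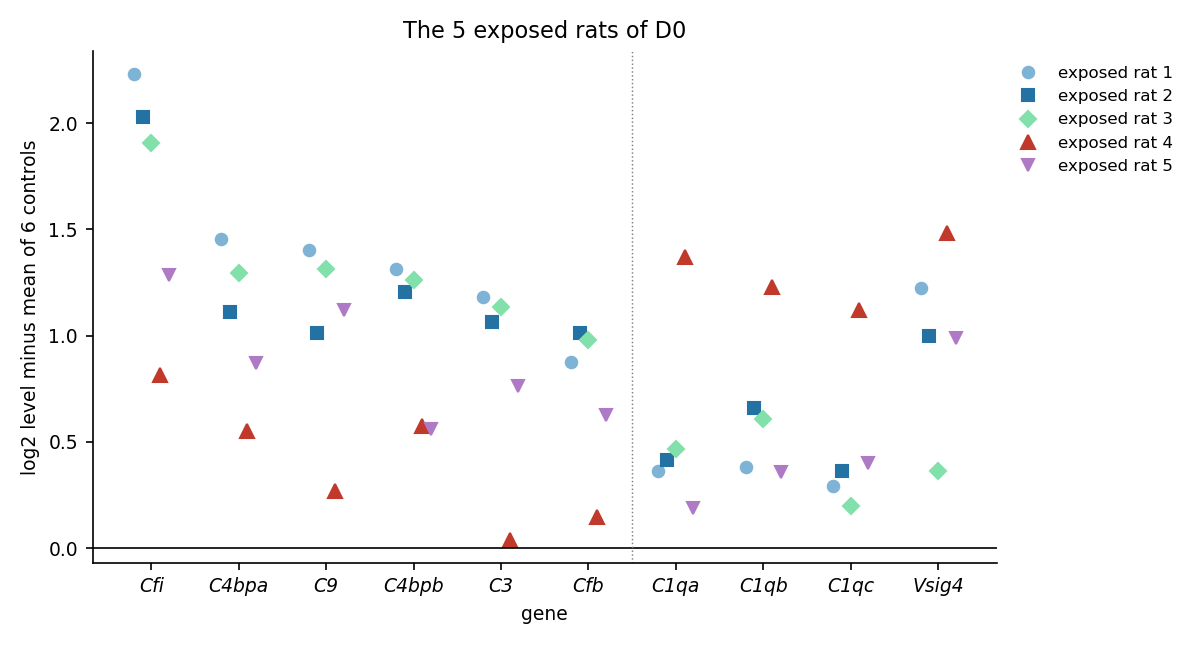
Log2 level of each of the 5 exposed rats of D0 minus the mean of the 6 controls of D0 (y axis) for 10 members, chosen after their values were seen, with 1 colour and shape per rat. Left of the dotted line exposed rat 4 is the lowest for every gene but C4bpb, and right of it the highest.

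The arrays came from 5 slides, and each slide that held both groups of a day gave a difference of its own. On D0 4 slides and on D28 3 slides held control and exposed arrays. Cfi was higher in exposed rats on 4 of 4 slides on D0, by 0.91 to 2.12, and on 3 of 3 on D28, by 0.68 to 1.41. C4bpa, C4bpb and Cfb were likewise higher on 4 of 4 and 3 of 3 slides. C3 was higher on 3 of 4 slides on D0, with -0.07 on the slide whose exposed array of D0 was rat 4, and on 3 of 3 on D28, by 0.57 to 0.74. C1qb was higher on 4 of 4 slides (0.42 to 1.24) and on 3 of 3 (0.09 to 0.29), C9 on 4 of 4 and 3 of 3, and Mbl1 on 4 of 4 and 1 of 3. Colec12 was lower on every one of these slides, by -0.84 to -0.37 on D0 and by -0.64 to -0.23 on D28.

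**Figure D4:**
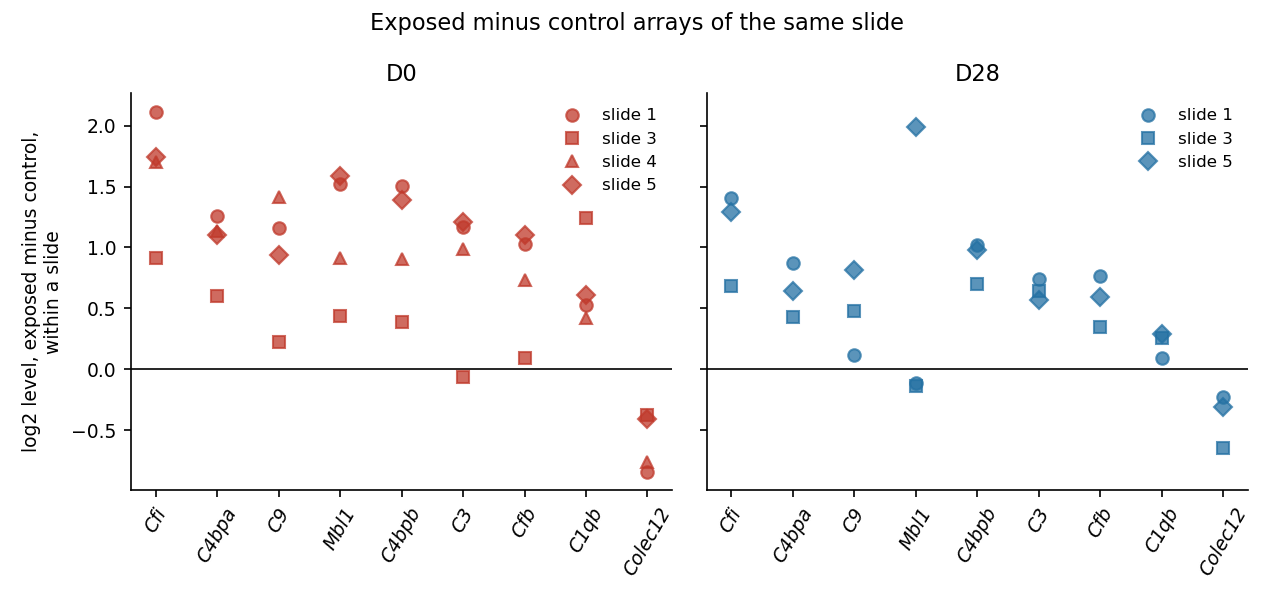
Mean log2 level of exposed minus control arrays of the same slide (y axis) for the 9 members past both thresholds, with 1 shape per slide, 4 slides on D0 (left) and 3 on D28 (right). Of the 8 members over-expressed on D0, C3 alone has a slide below 0 on D0, at -0.07.

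The effects of both days were set side by side and their difference was tested. No member passed the thresholds for the difference between D28 and D0 (0 of 38, with 0.0304% of all genes past them), and 3 members had an unadjusted limma p below 0.05, against 3.44% of all genes. These were C9 (difference -0.63, SE 0.25), C1qb (-0.41, SE 0.18) and Masp1 (0.64, SE 0.30, over its 4 probes), each with a limma adjusted p of 1. The difference for Cfi did not pass either (difference -0.49, SE 0.29), nor did that for C3 (-0.12, SE 0.22). The sign of the FC was the same on both days for 33 of the 38 members, or 86.8%, against 63% of all genes. These groups of D0 and D28 share no rats.

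In the control rats, 0 of the 38 members differed between D28 and D0 past both thresholds (0.608% of all genes did), and 7 had an unadjusted limma p below 0.05 (13.3% of all genes did). In the exposed rats, 3 members did (7.89%, against 0.352% of all genes). Mbl1 was lower on D28 by a log2 FC of -1.38 (limma adjusted p = 0.0141), C9 was lower by -0.81 (adjusted p = 0.0469), and Colec12 was higher by 0.69 (adjusted p = 0.0188). The call of C9 was lost in 19 of the 23 fits without 1 array (adjusted p of up to 0.166), with normexp (-0.55, below the FC limit), with no filter on dim probes (adjusted p = 0.0503) and with the replicate number as a block (0.0871). That of Mbl1 was lost with normexp (-0.57, below the FC limit) and without exposed rat 1 of D0 (adjusted p = 0.0553), and its log2 FC was -0.80 with the deposited table. That of Colec12 was lost without exposed rat 1 or 5 of D0 or exposed rat 2 or 6 of D28 (adjusted p of up to 0.0838). The same comparison in control rats gave -0.71 for Mbl1 (adjusted p = 0.213), -0.18 for C9 and 0.52 for Colec12 (adjusted p = 0.0682). These comparisons share their rats with those of exposed against control rats. Vsig4 had -1.05 in control and -0.95 in exposed rats, with adjusted p of 0.18 and 0.475.

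Other genes tied to complement were counted in a list of 26, of which 24 were tested. On D0 2 of the 24 were over-expressed, against 1.09% of all genes. These were Itgam, the alpha chain of complement receptor type 3 (log2 FC 0.99, SE 0.12, limma adjusted p = 0.000123), and Ptx3, a pentraxin that binds C1q (0.80, SE 0.21, adjusted p = 0.0391). On D28 3 of the 24 were over-expressed, against 0.486% of all genes. Itgam passed again with 0.93 (adjusted p = 0.0003) and Ptx3 with 1.03 (adjusted p = 0.0105). On D28 Cd5l, a macrophage product, was over-expressed too (limma adjusted p = 0.00622). It was well above background on 0 of 6 control and 3 of 6 exposed arrays, so that the size of its FC is uncertain. The FC was 4.65 with each control level raised, where lower, to the lowest level of any probe well above background on that array. That level is no detection limit of Cd5l. None of the 24 was under-expressed, and the median log2 FC was 0.09 on D0 and 0.0052 on D28.

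Markers of the cells that could supply these transcripts were counted too, and their part in the results was not tested. Of 15 macrophage markers, 2 were over-expressed on D0 (Siglec1 and Chi3l1) and 1 on D28 (Chi3l1). Of all genes, 1.09% were over-expressed on D0 and 0.486% on D28. The mean log2 level of the 15 ran from 9.28 to 9.53 in control and from 9.69 to 9.96 in exposed rats on D0, and from 9.21 to 9.65 and from 9.49 to 9.75 on D28. Exposed rat 4 had 9.89 on D0. The summed linear signal of these markers overlapped between the groups, from 149326 to 184474 in control and from 169248 to 193851 in exposed rats on D0, and from 133968 to 179001 and from 156688 to 181902 on D28.

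Of 11 type II pneumocyte markers, 0 passed on either day, with a median log2 FC of 0.24 on D0 and 0.20 on D28. Their mean log2 level ran from 13.74 to 13.90 in control and from 13.88 to 14.19 in exposed rats on D0, with 13.90 in exposed rat 4 and 13.88 in exposed rat 5. On D28 it ran from 13.69 to 14.05 and from 13.89 to 14.16. The summed linear signal of these markers did not overlap on D0, from 392759 to 433471 in control and from 455079 to 531246 in exposed rats. It overlapped on D28, from 377943 to 458139 and from 423113 to 509000. Each of the 11 was well above background on every array. Type I pneumocyte markers were lower, with a median log2 FC of -0.31 on D0 and -0.29 on D28, and 0 of 8 passed. Their mean log2 level did not overlap on D0, from 13.13 to 13.23 in control and from 12.65 to 13.00 in exposed rats, and overlapped on D28.

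Neutrophil markers did not pass (0 of 14 on both days), with mean log2 levels from 6.95 to 7.73 in control and from 6.62 to 7.37 in exposed rats on D0, and from 6.48 to 7.48 and from 6.82 to 7.12 on D28. Hepatocyte markers did not pass either (0 of 12), with mean log2 levels from 4.43 to 4.81 in control and from 4.33 to 4.85 in exposed rats on D0. Their summed linear signal did not overlap on D0, from 4055 to 5106 in control and from 5516 to 7664 in exposed rats. It overlapped on D28, from 4367 to 9036 and from 5225 to 7705. Such a sum is weighted to the brightest genes of a list. The median log2 FC of the 12 was 0.05 on D0, and 4 genes of the list were well above background on no array. Albumin, Alb, was well above background on 2 of 6 control and 0 of 5 exposed arrays of D0. Of mesothelial markers 3 of 6 were under-expressed on D0 (Wt1, Lrrn4 and Upk1b), against 0.695% of all genes, and 0 on D28. The mean log2 level of the 6 ran from 9.95 to 10.22 in control and from 9.46 to 9.76 in exposed rats on D0, with no overlap. The 10 endothelial markers, of which 0 passed, had a median log2 FC of -0.25 on D0 and -0.21 on D28. Their mean log2 level ran from 12.05 to 12.24 in control and from 11.78 to 11.97 in exposed rats on D0, again with no overlap, and overlapped on D28. In the other lists, Bpifb1 of secretory airway cells was over-expressed on both days and Tcf21 of fibroblasts was under-expressed on D0, while 0 markers of T cells, B and plasma cells and platelets passed.

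**Figure D5:**
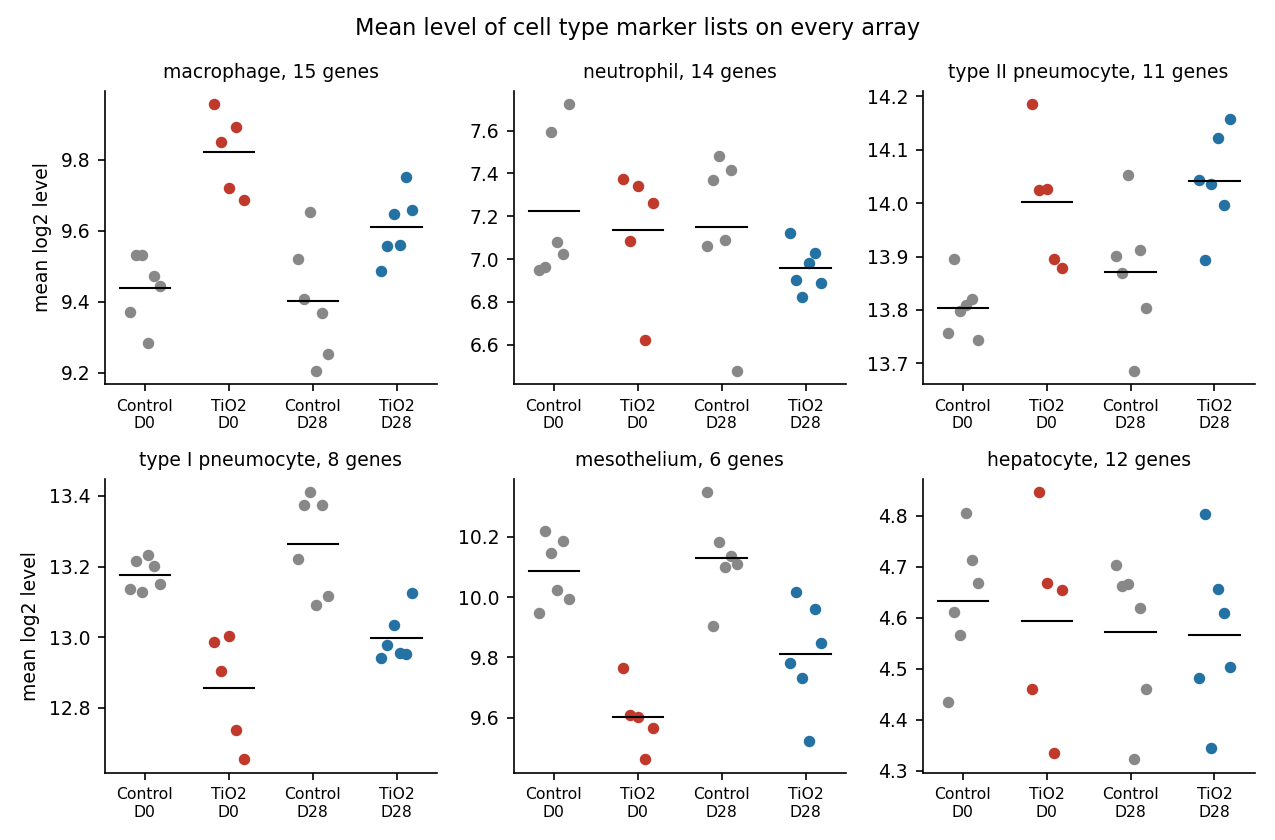
Mean log2 level of 6 lists of cell type markers (y axis) on every array, with a line at the mean of each group. The macrophage list is higher in every exposed than in every control rat of D0 and overlaps on D28, and the hepatocyte list overlaps on both days.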

How the data were processed

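The authors deposited the scanner output of Agilent Feature Extraction (version 11.0.1.1 for 22 arrays and 12.0.1.1 for 1), which holds intensities per spot, and a table of all arrays with intensities on the linear scale that is quantile normalized. The processed signal, which is the intensity corrected for background within the array, was used here. Outlier spots were set missing, and a probe was kept (40417 of 45598) if 5 or more arrays had it above the 95th percentile of their 308 negative control spots. Log2 values were quantile normalized and averaged over spots and then over the probes of a gene. Symbols came from the array file of the later software, and probe positions (rn4) from the array files. Genes with a missing value were dropped (29).

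One limma model (version 3.58.1, R 4.3.3) with a mean for each group was fitted to 23 arrays and 23027 genes, with 19 residual degrees of freedom, no batch term and Benjamini-Hochberg adjustment over all genes. The fit was tested on simulated data. Intervals are 95% intervals of the fit. The number of arrays limits the precision, and the software marked from 69.5% to 77.9% of the spots of an array as well above background, with no spot of a member saturated. Levels of different genes were not compared, since probes differ in brightness.

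The members, the lists and the alternatives were chosen with earlier results of these data known. Named in full were C3, Cfi and every member past both thresholds. Other members are given by their FC, and genes of the cell lists are counted and named where at most 5 passed. The alternatives were 75th percentile scaling, normexp background correction (offset 50), the deposited table, no filter or a filter on spots well above background, the brightest probe, the arrays of one day, the slide or the replicate number as a block, an intensity trend with robust estimation, no FC limit, an unadjusted p, and leaving out each array in turn. Replicate numbers are shared by the groups and did not pair the rats.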

Additional observations from a re-analysis of the deposited data

Results flagged for a closer look

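In 12 of 152 combinations of a member and a group (7.89%), 1 rat lay far from the others of its group, with a gap to its nearest neighbour above the 95% critical value of Dixon's test. Chance gives about 1 in 20 such combinations. Exposed rat 4 of D0 was the highest of its group for C1qa (log2 level 12.56, next 11.65), C1qc (10.27, next 9.55) and C8a (2.86, next 1.92, near background). Exposed rat 5 of D0 was the lowest for Serping1 (13.87, next 14.38). Control rat 2 of D28 was the highest for C1qa (11.65, next 11.20) and C3ar1 (6.72, next 6.27), and control rat 6 of D28 was the lowest for Mbl1 (3.17, next 4.55). Of the exposed rats of D28, rat 2 was the lowest for C4a (11.11, next 11.90) and C4b (13.17, next 13.77), rat 4 the highest for C4bpa (13.14, next 12.53) and Masp2 (2.78, next 2.12, near background), and rat 5 the highest for Vsig4 (8.94, next 7.46). No member passed the test of a difference between the effects of D0 and D28.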

How the results depend on the processing

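Of the 594 recomputed log2 FC of the 9 members named in full, 550 stayed on their side of the thresholds, 35 lost the call, 9 gained it and 0 changed sign. Cfi and C3 kept their calls on both days in all 10 other settings and in all 23 fits without 1 array. The count of D0 ran from 7 to 11 over the other settings and from 7 to 9 without 1 array. The count of D28 was 2 with only the arrays of D28 and 7 with an unadjusted p, and from 2 to 6 without 1 array (2 without exposed rat 6 of D28). With an unadjusted p the counts were 2 for the difference between the days, 3 for control rats and 5 for exposed rats, D28 against D0. An unadjusted limma p below 0.05, without the FC limit, was reached by 3.44%, 13.3% and 7.7% of all genes in these comparisons. For exposed against control rats of D28 it was reached by 11% of all genes. Shares with the FC limit are not given, so these counts are not set against a background. The count for control rats was 1 with the slide as a block (Vsig4) and from 0 to 1 without 1 array (1, C7, without control rat 1 of D28). That for exposed rats was 1 with normexp and from 0 to 3 without 1 array, with 0 without exposed rat 1 of D0 and 1 without exposed rat 5 of D0 or exposed rat 2 or 6 of D28. The median log2 FC on D28 was 0.15 with normexp, 0.16 with the deposited table and from 0.16 to 0.28 without 1 array. On D0 it was 0.40 with the stricter filter on spots well above background, which left 35 members. That of the difference ran from -0.10 to -0.014 without 1 array. C4bpa passed on D28 with 75th percentile scaling (adjusted p = 0.0437), normexp (0.0277), the deposited table (0.0251), the filter on spots well above background (0.0303), the slide as a block (0.0169) and the intensity trend (0.0281). The cause of these changes was not tested. With the replicate number as a block the counts were 8 on D0 and 3 on D28, with Colec12 (D0) and C4bpb (D28) lost, and 2 for exposed rats, D28 against D0, with C9 lost, and the correlations of rats of the same number ran from -0.22 to 0.46 over 11 pairs, with 3 above 0.1, so that the numbers were not taken as pairs. Probes near background, such as those of C8a, Masp2 and Mbl2 and 2 of the 4 of Masp1, limit what can be said of these members.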
